A study of Mus musculus with 12 samples.

Results

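Interferon-stimulated genes are the genes that a cell transcribes when it is exposed to interferon, and many of them are also transcribed at a low level without it. A list of 38 such genes was examined in mouse hematopoietic stem and progenitor cells with or without knockdown of *Rad21*. The genes were found by symbol among the 46078 genes of the deposited counts, and a gene was kept if it had at least 10 counts in at least 3 libraries. All 38 genes were found and all 38 were kept. By role, the list held 4 regulators of the response, 4 genes of the ISG15 and IFIT group, 5 OAS family genes, 5 cytosolic nucleic acid sensors, 9 other antiviral effectors, 3 genes of the PARP9-DTX3L and PARP14 group, 5 interferon-inducible GTPases, and 3 genes of MHC class I antigen processing.

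The data were RNA sequencing (RNA-seq) counts from 12 libraries in 4 groups of 3, all from cells of the C57BL/6 strain. LSK cells, the lineage-negative, Sca-1+, c-Kit+ fraction of bone marrow that holds the stem and multipotent progenitor cells, were infected with a GFP-expressing lentivirus whose shRNA targeted *Rad21* (shRad21) or, in the controls, luciferase (shLuci). In the culture setting, GFP+CD48-Sca-1+ cells were purified on day 3 after isolation and infection. In the in vivo setting, infected cells were transplanted into lethally irradiated mice, and GFP+ LSK cells were reisolated after 3 mo per the labels (4 mo in the methods of the study). All 12 libraries thus came from infected cells. Cultures contained thrombopoietin and stem cell factor. The age of the donors and recipients was not used here, and whether a library came from 1 mouse or from pooled mice was not given in the sources used here, so p-values measure the spread between these samples. Culture libraries were made with TruSeq RNA v2 and in vivo libraries with SMART-Seq v4 and Nextera XT, so setting, sorted population, and library kit cannot be told apart.

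Interferons α and β bind a receptor made of IFNAR1 and IFNAR2, and interferon γ binds IFNGR1 and IFNGR2. The receptor-bound kinases JAK1, JAK2, and TYK2 phosphorylate STAT proteins. The complex ISGF3, which contains STAT2 and IRF9, binds the interferon-stimulated response element (ISRE), and STAT dimers bind the interferon γ-activated site (GAS). In bone marrow, interferon drives quiescent hematopoietic stem cells into division. RAD21 is a subunit of cohesin, the ring complex that holds sister chromatids together and forms chromatin loops.

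Library totals were between 15235129 and 29846689 counts, so that 3 counts corresponded to between 0.101 and 0.197 CPM (counts scaled to a common library size). *Rad21*, the targeted gene, was 378 ± 17.1 CPM in shLuci and 132 ± 12.3 CPM in shRad21 cells in culture, and 129 ± 4.72 and 48.0 ± 2.92 CPM in vivo (mean ± SD, n = 3). None of 12 LSK and stem cell markers was at 0 in any group. Their summed level was between 3230 and 3530 CPM in shLuci and between 3250 and 3610 CPM in shRad21 culture libraries. In vivo the groups were apart, with 4850 to 5040 CPM in shLuci and 4690 to 4790 CPM in shRad21 libraries. With an adjusted p under 0.05 in edgeR, 6 of the 12 were higher and 2 lower in culture (6.18% and 8.06% of all genes). In vivo 6 were higher and 3 lower (5.65% and 5.32% of all genes). Markers of other cell types also moved with the knockdown. The summed level of 10 monocyte, macrophage, and dendritic cell markers ranged from 57.3 to 86.8 CPM in shLuci and from 16.6 to 24.7 CPM in shRad21 libraries in culture, and from 89.5 to 126 and from 40.8 to 54.4 CPM in vivo. None of these 10 markers was at 0 in any group. In vivo, shLuci and shRad21 libraries were also apart in the summed levels of markers of megakaryocytes (256 to 316 against 589 to 731 CPM), mast cells and basophils (91.6 to 107 against 136 to 202 CPM), T and NK cells (305 to 412 against 238 to 265 CPM), plasmacytoid dendritic cells (274 to 326 against 213 to 218 CPM), and erythroid cells (99.9 to 160 against 61.1 to 84.5 CPM), with none of these markers at 0. The plasmacytoid dendritic cell list includes *Irf8*, whose fall in vivo is given below, so its sum can rest largely on that gene. Of its 6 genes tested in vivo, 2 were called lower (5.32% of all genes). In culture, the summed granulocyte, B cell, and T and NK cell markers were apart as well, all lower in shRad21 libraries. In each culture group 1 granulocyte and 1 B cell marker was at 0, and 1 to 4 of the T and NK cell markers. Enough counts to be tested in culture were found for 4 of 10 granulocyte, 2 of 7 B cell, and 2 of 9 T and NK cell markers. The part of these markers in the results that follow was not tested. In bulk samples, fewer cells of a type and less RNA per cell cannot be told apart.

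ISRE and GAS sites stand in the promoters of many interferon-stimulated genes. The 38 genes were listed as such genes, so a high share of matches describes the list and is not a result of these libraries. The part of these sites in the values of the genes was not tested. RefSeq promoter windows (GRCm38.p6, 300 bases around each start, most of them before it) matched 28 of the 38 genes, with 32 windows. Both strands were searched for GAAANNGAAA (its reverse complement is TTTCNNTTTC), an ISRE-like pattern, and for TTCNNNGAA, a GAS-like pattern that reads the same on both strands and can overlap the first. The ISRE-like pattern was in 17 of the 32 windows (53.1%, in 16 genes) and in 1131 of all 32851 windows (3.44%). A longer form, GAAANNGAAACT, was in 10 of the 32 windows (31.2%) and in 0.271% of all windows. The GAS-like pattern was in 6 windows (18.8%) and in 8.30% of all windows.

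Stretches around the matches are printed below for genes called in a knockdown comparison in the sections that follow, 5′ to 3′ on the strand of the gene, with the ISRE-like matches in capitals. *Isg15* (chr4:156200860-156200911, minus strand) has 3 overlapping matches, *Oas1a* (chr5:120907526-120907560, minus), *Bst2* (chr8:71537572-71537617, minus), and *Gbp3* (chr3:142559984-142560025, plus) have 2 each, and *Oas3* (chr5:120777710-120777749, minus) and *Igtp* (chr11:58199507-58199546, plus) have 1. All 6 stretches lie before the RefSeq start. All 6 genes were called lower in culture, and *Isg15*, *Oas1a*, *Oas3*, and *Igtp* passed in edgeR only with the block. *Gbp2*, called higher in culture with the block, also has 1 match, which is not printed because its RefSeq start lies inside the gene as annotated in GENCODE M21. Of the other called genes with a window, *Ifit2* and *Cmpk2* (higher) and *Ifi44*, *Xaf1*, *Psmb8*, *Psmb9*, and *Tap1* (lower) have no match in it. A match is also in the windows of *Ifit1*, *Ifit3*, *Stat2*, *Rsad2*, *Ifih1*, *Ddx58*, *Trim30a*, *Eif2ak2*, and *Irgm1*. None of these genes was called by edgeR in the culture or the in vivo knockdown comparison, with or without the block. *Ifih1* passed with the block in the test of the difference between the settings, given below. A match was thus found in genes called lower, called higher, and not called.
Isg15: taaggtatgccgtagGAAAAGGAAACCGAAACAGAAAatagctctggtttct
Oas1a: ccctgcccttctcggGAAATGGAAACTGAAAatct
Oas3: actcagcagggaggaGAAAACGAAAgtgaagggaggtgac
Bst2: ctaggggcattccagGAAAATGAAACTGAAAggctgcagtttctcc
Igtp: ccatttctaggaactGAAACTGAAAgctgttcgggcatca
Gbp3: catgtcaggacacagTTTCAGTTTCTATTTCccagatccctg

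For contrast, *Ifit1* (chr19:34640770-34640828, plus) has 2 separate matches and was called in no knockdown comparison; it was chosen for printing after its values were seen. A match in these letters describes the window and is not evidence of a bound factor.
Ifit1: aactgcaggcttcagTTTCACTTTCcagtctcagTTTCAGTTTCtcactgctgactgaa

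The first comparison asked how knockdown of *Rad21* changed these genes in cultured cells. Most log2 fold changes (shRad21 over shLuci) were negative, 30 of 38 (78.9%, against 50.7% of all 15543 genes tested), and their median was −0.19 against −0.0039 for all genes. The median was −0.063 without shRad21 library 1, −0.099 without shLuci library 2, and −0.32 without shLuci library 1. Few of these differences passed the test one gene at a time. With an adjusted p under 0.05 in edgeR's quasi-likelihood test, 2 of the 38 genes were lower, *Gbp3* and *Bst2*, beside 8.06% of all genes, and 1 was higher, *Ifit2*, beside 6.18% of all genes. An unadjusted p under 0.05 was reached by 12 genes (27.0% of all genes). DESeq2 called 4 genes lower, beside 8.74% of all genes, and 1 higher, beside 6.65%. In edgeR 0 genes were called lower without shLuci library 2 or without shRad21 library 1, 4 without shLuci library 1, and 5 without shLuci library 3. The values of shRad21 libraries lay below those of all shLuci libraries for 7 genes (*Isg15*, *Mx1*, *Stat2*, *Bst2*, *Igtp*, *Gbp3*, and *Tap1*), as for 15.8% of all genes, and above them for 1 gene, *Ifit2*, as for 15.9% of all genes.

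Same-numbered culture libraries of the 2 groups deviated together from their group means across all genes, so the comparison was also made within replicate numbers. In edgeR with this number as a block, 13 genes were lower (34.2%, against 11.2% of all genes) and 3 were higher (7.89%, against 9.31% of all genes). The 13 were *Isg15*, *Mx1*, *Oas1a*, *Oas2*, *Oas3*, *Usp18*, *Ifi44*, *Dhx58*, *Bst2*, *Xaf1*, *Igtp*, *Gbp3*, and *Tap1*, and the 3 were *Ifit2*, *Cmpk2*, and *Gbp2*. In all 3 pairs of the same number, 20 genes were lower (52.6%, against 24.6% of all genes) and 5 were higher (13.2%, against 25.1%). The number of calls rested on single pairs: without both libraries numbered 1 the block gave 8 lower genes, without those numbered 2 it gave 5, and without those numbered 3 it gave 14. *Bst2*, *Gbp3*, *Oas2*, *Oas3*, and *Usp18* were called lower, and *Cmpk2* and *Ifit2* higher, in the full block fit and in each of the 3 fits that left out a pair. The labels do not state any pairing, so the pairs were inferred from these same counts. Genes of the list also varied together between culture libraries, so calls made within pairs are not independent of each other. Both limits apply to all culture p-values given with the block.

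**Figure D1:**
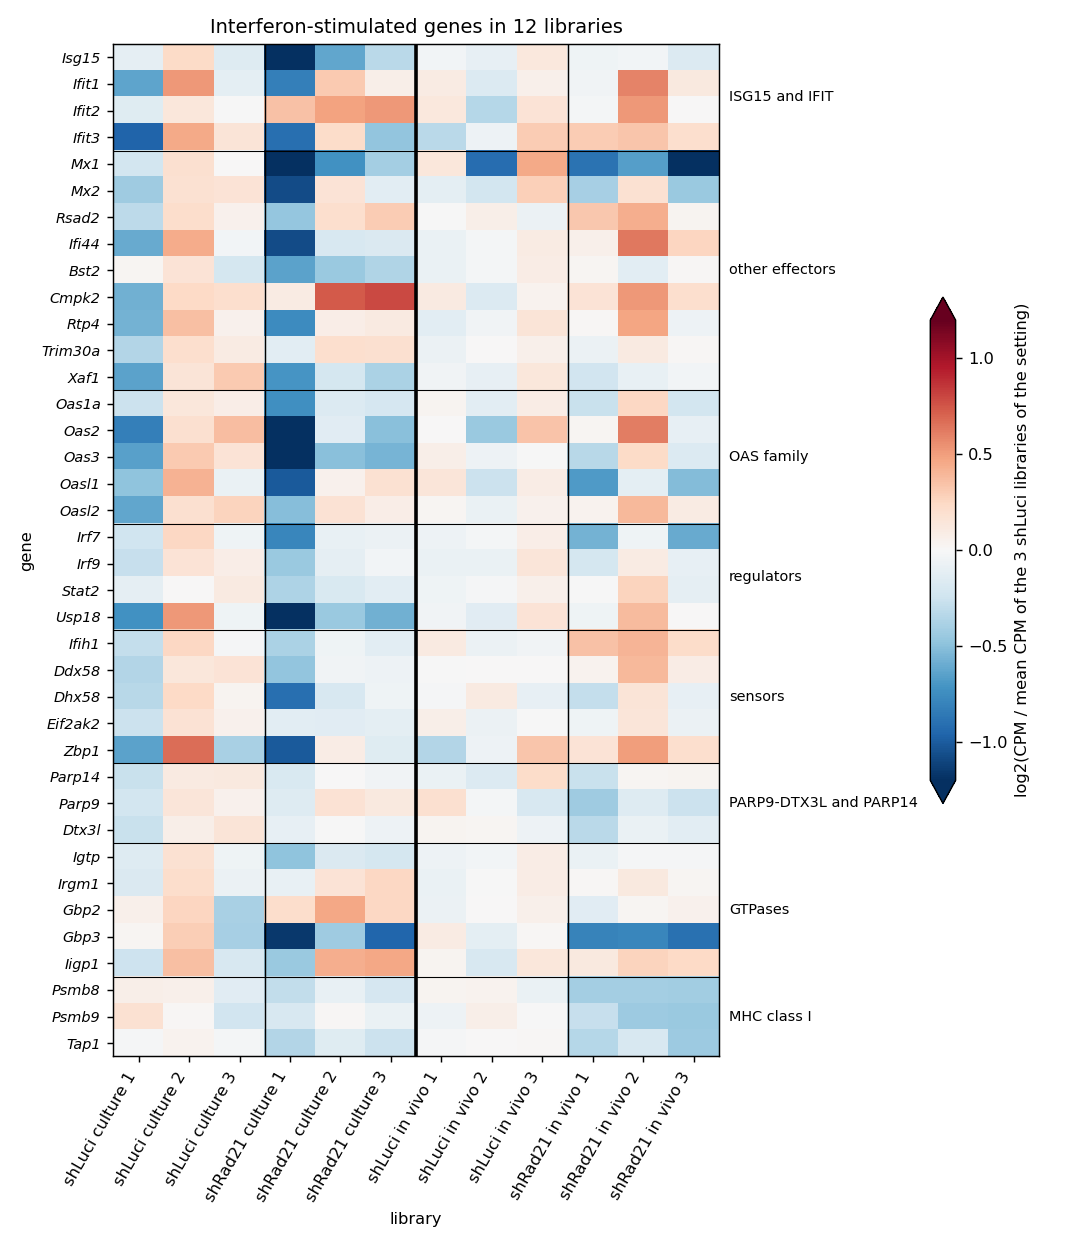
Level of each of the 38 genes (rows, grouped by role) in each of the 12 libraries (columns) as log2 of its CPM over the mean CPM of the 3 shLuci libraries of the same setting, with colours saturating at the ends of the scale. In culture, 33 of 38 genes in shLuci library 1 and 35 of 38 in shRad21 library 1 lie below the shLuci mean (blue), and in vivo the rows of *Gbp3*, *Psmb8*, *Psmb9*, and *Tap1* are blue in all 3 shRad21 libraries.

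The second comparison put the same question to cells reisolated from transplanted mice. There 20 of 38 log2 fold changes were negative (52.6%, against 50.3% of all 15938 genes tested), with a median of −0.026 against −0.0019. The genes that passed the test were the 3 genes of MHC class I antigen processing, *Psmb8*, *Psmb9*, and *Tap1*, together with *Gbp3*. These 4 were called lower (10.5%, against 5.32% of all genes) and 0 were called higher in edgeR, where 5.65% of all genes were, and the same 4 were called with the replicate block. DESeq2 called 5 genes lower and 1 higher, beside 6.94% and 7.24% of all genes, and 12 genes had an unadjusted p under 0.05 in edgeR (24.1% of all genes). The groups did not overlap for 5 genes that were lower (14.5% of all genes), the 4 called genes and *Dtx3l*, nor for 3 that were higher (14.7% of all genes), *Ifih1*, *Ddx58*, and *Cmpk2*.

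**Figure D2:**
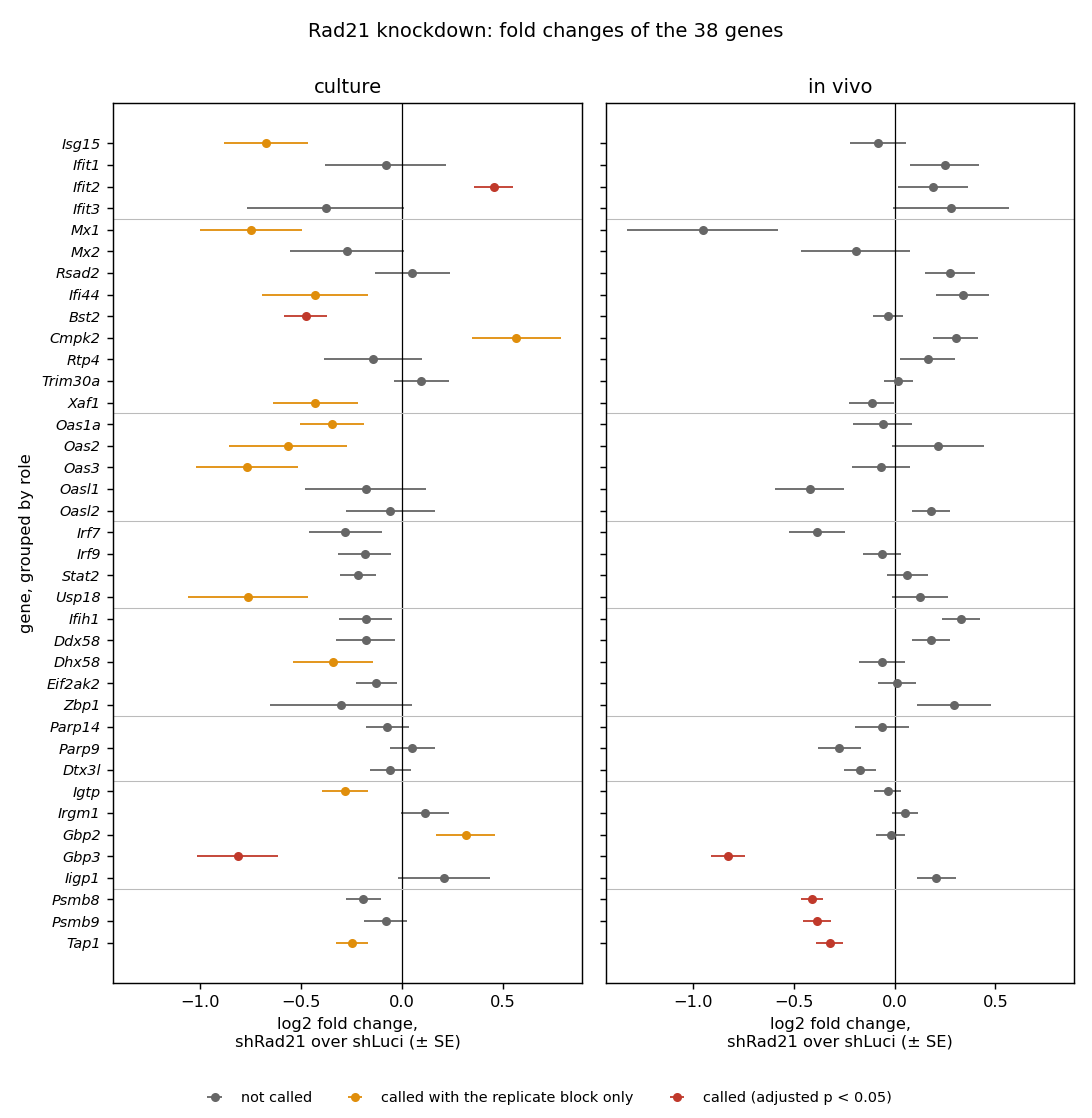
Log2 fold change of each gene, shRad21 over shLuci (points, with the SE as bars), in culture on the left and in vivo on the right; red points were called with an adjusted p under 0.05 in edgeR and orange points only with the replicate block. In culture 30 of 38 points lie left of 0, and in vivo 20 of 38.

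The regulators were *Irf7*, a transcription factor that amplifies interferon production, *Irf9* and *Stat2*, DNA-binding and transactivating subunits of ISGF3, and *Usp18*, a protease that removes ISG15 from proteins and blocks the interferon receptor. *Usp18* read 9.41, 22.3, and 15.1 CPM in the shLuci culture libraries 1 to 3 and 5.84, 11.5, and 10.5 CPM in the shRad21 libraries. The 2 groups overlapped, but each shRad21 library was lower than the shLuci library of its number, by 0.68, 0.95, and 0.52 on the log2 scale. Its log2 fold change was −0.76 ± 0.30 (SE), with an adjusted p in edgeR of 0.121 without and 0.000385 with the block. In vivo *Usp18* read 27.9, 26.0, and 32.1 CPM in shLuci and 27.7, 37.4, and 28.9 CPM in shRad21 libraries, and the groups overlapped (log2 fold change 0.13 ± 0.14, edgeR, adjusted p = 0.656).

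*Stat2* was 118, 127, and 137 CPM in shLuci and 98.4, 112, and 117 CPM in shRad21 culture libraries. The groups did not overlap, but the difference did not pass the test (log2 fold change −0.22 ± 0.090, edgeR, adjusted p = 0.141 without and 0.0576 with the block). *Irf7* was lower in all 3 culture pairs (35.4, 49.9, and 40.5 against 24.4, 39.4, and 39.9 CPM), with a log2 fold change of −0.28 ± 0.18 and an edgeR adjusted p of 0.364 without and 0.0564 with the block. In vivo *Irf7* was 57.6, 59.4, and 63.8 CPM in shLuci libraries and 40.6, 58.1, and 39.7 CPM in shRad21 libraries. The second shRad21 library reached the range of the controls, and the test was not passed (−0.39 ± 0.14, edgeR, adjusted p = 0.116), whereas DESeq2 gave an adjusted p of 0.0379. *Irf9* had log2 fold changes of −0.18 ± 0.13 in culture and −0.063 ± 0.095 in vivo and was called in neither setting.

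*Isg15* codes for a ubiquitin-like protein that is attached to other proteins during the interferon response, and the IFIT proteins bind viral RNA. *Isg15* read 11.3, 14.2, and 10.9 CPM in shLuci and 5.25, 7.84, and 9.66 CPM in shRad21 culture libraries. All 3 shRad21 libraries lay below the controls, at 62.7% of the control level (log2 fold change −0.67 ± 0.21), and the adjusted p in edgeR was 0.0541 without and 0.00425 with the block. In vivo *Isg15* was 9.59, 9.18, and 10.7 CPM in shLuci libraries and 9.48, 9.58, and 8.78 CPM in shRad21 libraries, which overlapped (−0.083 ± 0.14, edgeR, adjusted p = 0.786).

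*Ifit2* went the other way from *Isg15* in culture. It read 30.8, 37.6, and 34.0 CPM in shLuci and 43.7, 47.9, and 49.0 CPM in shRad21 libraries, so that all 3 shRad21 libraries were higher, at 137% of the control level (log2 fold change 0.45 ± 0.098, edgeR, adjusted p = 0.0105). In a model of all 12 libraries the adjusted p was 0.0750. In vivo *Ifit2* overlapped between the groups (45.5, 32.9, and 46.8 against 41.1, 59.97, and 41.9 CPM). *Ifit1*, which lies on the same chromosome and whose promoter window is shown above, was between 10 and 22.2 CPM in shLuci libraries and 8.75, 19.3, and 16.3 CPM in shRad21 culture libraries, which overlapped (a log2 fold change of −0.082 ± 0.30, edgeR, adjusted p = 0.907). *Ifit3* was the gene with the lowest level per length in shLuci culture cells, at 0.624 ± 0.273 CPM per kb of exons (SD, n = 3), and was called in neither setting. Of the 3 *Ifit* genes, which lie in a cluster on chromosome 19, only *Ifit2* was thus called in culture.

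The OAS genes code for enzymes that make 2'-5' oligoadenylates in response to double-stranded RNA, or for relatives without that activity. All 5 had negative log2 fold changes in culture, from −0.77 to −0.059, and 3 of them, *Oas1a*, *Oas2*, and *Oas3*, were called lower with the block; 0 were called without it. *Oas3* read 63.6, 124, and 112 CPM in shLuci and 37.97, 70.8, and 68.0 CPM in shRad21 culture libraries. Within pairs it fell by 0.74, 0.81, and 0.72 on the log2 scale, and in each group the library numbered 1 was the lowest (log2 fold change −0.77 ± 0.25, edgeR, adjusted p = 0.0698 without and 1.946e-06 with the block). *Oas2* read 21.98, 44.3, and 50.1 CPM against 16.6, 35.4, and 27.4 CPM (−0.57 ± 0.29, edgeR, adjusted p = 0.252 without and 0.0016 with the block). *Oas1a* read 22.4, 29.4, and 28.3 CPM against 16.1, 23.9, and 23.3 CPM (−0.35 ± 0.16, edgeR, adjusted p = 0.189 without and 0.0198 with the block). In vivo the log2 fold changes of the 5 genes ran from −0.42 for *Oasl1* to 0.21 for *Oas2*, and none was called by edgeR with or without the block. *Oasl2*, whose levels were 43.8 to 81.4 CPM in shLuci and 47.4 to 76.4 CPM in shRad21 culture libraries, had a log2 fold change of −0.059 ± 0.22.

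**Figure D3:**
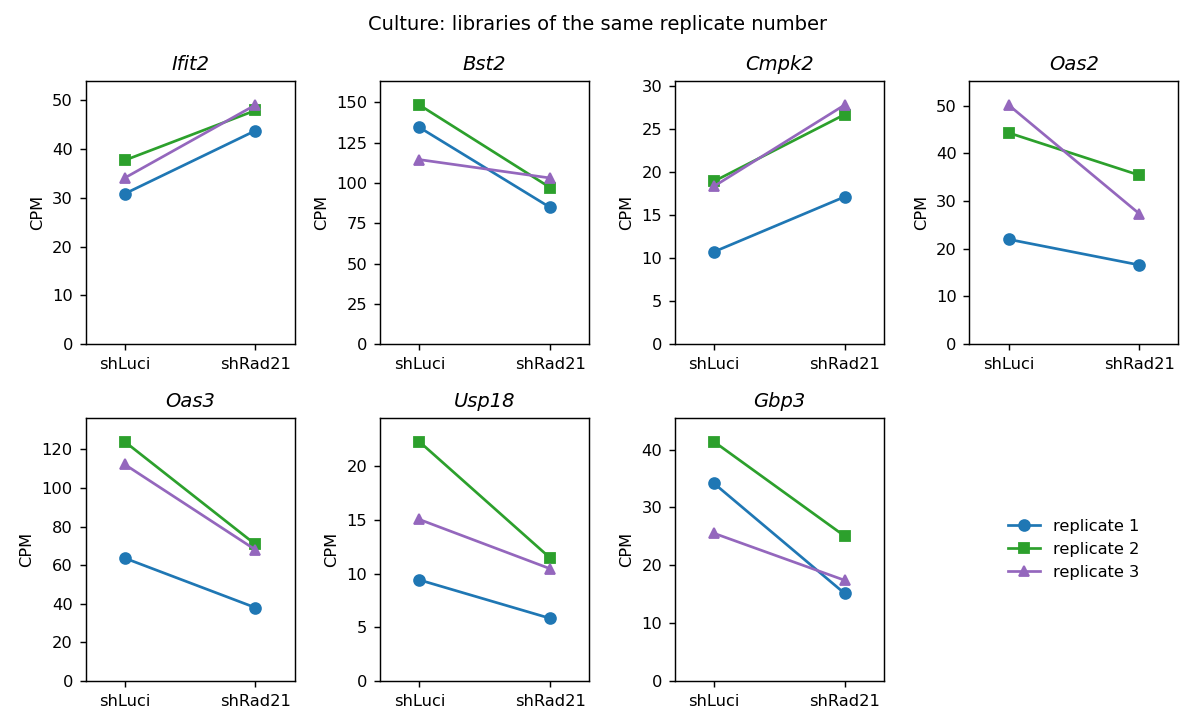
CPM of the 7 genes called in culture with the replicate block in the full fit and in each fit without 1 pair; lines join the shLuci and shRad21 libraries of the same replicate number (circle 1, square 2, triangle 3), and each axis starts at 0. *Ifit2* and *Cmpk2* rise in every pair and *Bst2*, *Oas2*, *Oas3*, *Usp18*, and *Gbp3* fall in every pair, while libraries numbered 1 have the lowest *Oas3* and *Usp18* values in both groups.

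The sensors were *Ddx58* and *Ifih1*, which code for the viral RNA receptors RIG-I and MDA5, *Dhx58*, which codes for their relative LGP2, *Eif2ak2*, which codes for the double-stranded RNA-dependent kinase PKR, and *Zbp1*, which codes for a receptor of left-handed nucleic acid. In culture all 5 log2 fold changes were negative, from −0.34 to −0.13, and only *Dhx58* was called, with the block. *Dhx58* read 45.4, 67.5, and 58.4 CPM in shLuci and 30.5, 49.9, and 55.1 CPM in shRad21 libraries (−0.34 ± 0.20, edgeR, adjusted p = 0.313 without and 0.0149 with the block). In vivo *Ifih1* was 40.5, 35.9, and 36.5 CPM in shLuci libraries and 48.0, 49.9, and 43.8 CPM in shRad21 libraries. All 3 shRad21 libraries were higher, at 126% of the control level, and the test was not passed (log2 fold change 0.33 ± 0.094, edgeR, adjusted p = 0.0529; DESeq2, adjusted p = 0.0195). *Ddx58* was also apart in vivo, with 91.9, 92.6, and 92.9 CPM in shLuci and 95.0, 121, and 98.3 CPM in shRad21 libraries, and was not called (0.18 ± 0.092, edgeR, adjusted p = 0.272).

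Among the other antiviral effectors, *Bst2*, which codes for tetherin, the membrane protein that holds budding viruses on the cell surface, was the gene with the highest level per length in culture (156 ± 20.1 CPM per kb in shLuci cells). *Bst2* read 135, 148, and 114 CPM in shLuci and 84.9, 97.2, and 103 CPM in shRad21 culture libraries. The groups did not overlap, and *Bst2* was at 71.8% of the control level (log2 fold change −0.48 ± 0.11, edgeR, adjusted p = 0.0128). The call was lost without shLuci library 2 (adjusted p = 0.0661) or shRad21 library 1 (adjusted p = 0.0595). In vivo *Bst2* was 76.7, 79.8, and 86.2 CPM in shLuci and 82.0, 73.9, and 81.5 CPM in shRad21 libraries, which overlapped (−0.032 ± 0.074, edgeR, adjusted p = 0.852).

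*Cmpk2*, a mitochondrial nucleotide kinase gene that lies beside *Rsad2* on chromosome 12, read 10.7, 18.9, and 18.3 CPM in shLuci and 17.1, 26.7, and 27.8 CPM in shRad21 culture libraries. It was higher in each pair, by 0.67, 0.49, and 0.60 on the log2 scale (log2 fold change 0.57 ± 0.22, edgeR, adjusted p = 0.124 without and 0.00055 with the block). Its neighbor *Rsad2*, the gene of the antiviral enzyme viperin, was not called in culture (26.8, 38.4, and 34.5 against 24.2, 38.2, and 41.1 CPM, log2 fold change 0.051 ± 0.19, edgeR, adjusted p = 0.908). In vivo *Cmpk2* was again higher in all 3 shRad21 libraries, with 54.5, 45.2, and 52.1 CPM against 56.6, 72.5, and 58.3 CPM, and was not called (0.30 ± 0.11, edgeR, adjusted p = 0.126).

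*Mx1*, a GTPase gene, was low throughout, at 2.11, 2.80, and 2.46 CPM in shLuci and 1.05, 1.48, and 1.84 CPM in shRad21 culture libraries. The culture groups did not overlap (log2 fold change −0.75 ± 0.25, edgeR, adjusted p = 0.0765 without and 0.0296 with the block). In vivo *Mx1* was 3.37, 1.62, and 4.18 CPM against 1.65, 1.94, and 1.15 CPM, which overlapped through the second shLuci library (−0.95 ± 0.37, edgeR, adjusted p = 0.152). *Ifi44* was 21.6, 44.9, and 32.2 CPM in shLuci and 15.6, 28.8, and 29.2 CPM in shRad21 culture libraries (−0.43 ± 0.26, edgeR, adjusted p = 0.338 without and 0.0108 with the block). In vivo it was 54.0, 56.0, and 60.7 CPM against 59.5, 88.3, and 67.8 CPM (0.34 ± 0.13, edgeR, adjusted p = 0.144), the opposite direction, with groups that overlapped. *Xaf1*, a gene linked to apoptosis, read 14.5, 25.1, and 28.1 CPM against 13.8, 19.6, and 17.3 CPM in culture (−0.43 ± 0.21, edgeR, adjusted p = 0.228 without and 0.0271 with the block). *Mx2*, *Rsad2*, *Rtp4*, and *Trim30a* were called in neither setting with or without the block, with log2 fold changes from −0.28 to 0.096 in culture and from −0.19 to 0.27 in vivo.

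*Parp9* and *Dtx3l* code for a pair of proteins that act as an ADP-ribosyltransferase and ubiquitin ligase, and *Parp14* for a related ADP-ribosyltransferase. In culture their log2 fold changes lay close to 0, from −0.073 to 0.051. In vivo *Dtx3l* was 114, 113, and 107 CPM in shLuci and 89.1, 106, and 102 CPM in shRad21 libraries (−0.17 ± 0.077, edgeR, adjusted p = 0.214), and *Parp9* was 112, 96.7, and 86.0 CPM against 72.9, 88.5, and 82.3 CPM (−0.27 ± 0.11, edgeR, adjusted p = 0.145). Neither was called. Exons of *Parp9* and *Dtx3l* overlap on opposite strands, over 9.4% and 8.0% of their exonic lengths, and the strand setting of the counting was not given in the sources used here.

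The interferon-inducible GTPases act on the membranes of vacuoles that hold intracellular pathogens. *Gbp3*, a guanylate-binding protein gene, was the one member of the list called lower in both settings in edgeR without the block. With the block, and also in DESeq2, *Tap1* was called lower in both as well. Of the 4 culture fits with the block (the full fit and 3 without 1 pair), *Tap1* was called in 2. In culture *Gbp3* read 34.2, 41.4, and 25.5 CPM in shLuci and 15.1, 25.1, and 17.4 CPM in shRad21 libraries, and in vivo 70.1, 60.6, and 66.2 CPM against 37.7, 38.1, and 35.3 CPM. In both settings every shRad21 library was below every shLuci library. *Gbp3* stood at 56.8% of the control level in culture (log2 fold change −0.82 ± 0.20, edgeR, adjusted p = 0.0202) and at 56.4% in vivo (−0.83 ± 0.083, edgeR, adjusted p = 0.000345), and the fold changes of the 2 settings differed by 0.019 ± 0.24 (SE, log2; edgeR, adjusted p = 0.991). The culture call was lost without shLuci library 1 (adjusted p = 0.0531), shLuci library 2 (0.106), shRad21 library 1 (0.0729), or shRad21 library 3 (0.0741), and was kept with the block without any 1 pair. The in vivo call was kept without any 1 library. Reads of *Gbp3* can be shared with other *Gbp* genes of similar sequence, which the counts cannot resolve.

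Among the other GTPases, the values of *Gbp2* lay in the other direction from *Gbp3* in culture. There *Gbp2* was 32.8, 37.5, and 24.1 CPM in shLuci and 36.5, 43.4, and 37.5 CPM in shRad21 libraries, higher in each pair (log2 fold change 0.32 ± 0.15, edgeR, adjusted p = 0.197 without and 0.0309 with the block), and in vivo its log2 fold change was −0.019 ± 0.073. *Igtp* read 42.5, 53.7, and 45.6 CPM against 33.8, 42.0, and 40.7 CPM in culture, where the groups did not overlap (−0.28 ± 0.11, edgeR, adjusted p = 0.136 without and 0.0355 with the block), and −0.035 ± 0.066 in vivo on the log2 scale. *Irgm1* and *Iigp1* were called in neither setting, with log2 fold changes of 0.11 and 0.21 in culture and 0.051 and 0.21 in vivo.

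*Psmb8* and *Psmb9* code for catalytic subunits of the immunoproteasome, which cuts proteins into peptides, and *Tap1* for one chain of the transporter that carries those peptides to MHC class I molecules. All 3 were lower in shRad21 cells in vivo. *Psmb8* read 475, 478, and 440.2 CPM in shLuci and 351, 350.2, and 349 CPM in shRad21 libraries (75.3% of the control level, log2 fold change −0.41 ± 0.056, edgeR, adjusted p = 0.0016). *Psmb9* read 293, 321, and 305 CPM against 253, 226, and 225 CPM (76.6%, −0.38 ± 0.067, edgeR, adjusted p = 0.00584). *Tap1* read 384, 391, and 391.7 CPM against 307, 339, and 287 CPM (80.0%, −0.32 ± 0.068, edgeR, adjusted p = 0.015). In each of the 3 genes the shRad21 libraries all lay below the shLuci libraries. The *Psmb8* and *Psmb9* calls were kept without any 1 library, and that of *Tap1* was lost without shRad21 library 1 (adjusted p = 0.0552) or 3 (adjusted p = 0.0733).

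In culture edgeR without the block called none of these 3 genes, and DESeq2 called *Tap1* (adjusted p = 0.0374). *Psmb8* was 127, 126, and 110.0 CPM in shLuci and 98.6, 114, and 105 CPM in shRad21 culture libraries, which overlapped (log2 fold change −0.19 ± 0.087, edgeR, adjusted p = 0.182). *Psmb9* also overlapped, with 111, 98.8, and 83.6 CPM against 85.9, 98.9, and 92.7 CPM (−0.082 ± 0.11, edgeR, adjusted p = 0.695). *Tap1* was 213, 222, and 212 CPM against 169, 195, and 181 CPM. The culture groups of *Tap1* did not overlap (−0.25 ± 0.079, edgeR, adjusted p = 0.0609 without and 0.0330 with the block). *Psmb9* and *Tap1* lie head to head, with 5.79% and 3.87% of their exonic lengths shared on opposite strands, and 14.7% of the exonic length of *Psmb8* overlaps an antisense gene. In the in vivo libraries, where these genes were called, summed levels of 10 granulocyte markers ranged from 1720 to 2210 CPM in shLuci and from 1220 to 1410 CPM in shRad21 libraries, and those of 7 B cell markers from 90.6 to 126 and from 55.4 to 74.8 CPM. The part of these markers in the result was not tested.

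**Figure D4:**
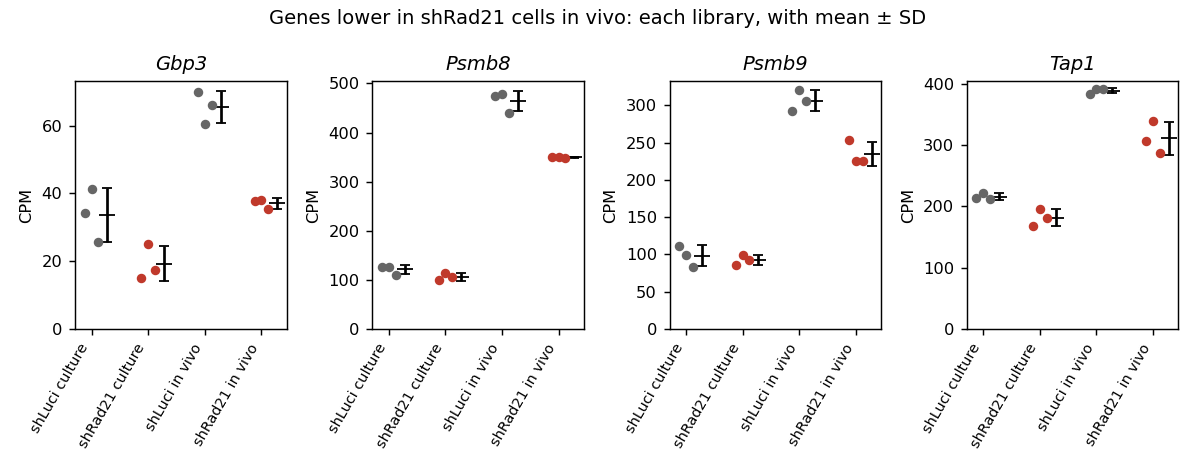
CPM of the 4 genes called lower in vivo, in each library (points) with the mean ± SD (n = 3) beside them, for the 4 groups; each axis starts at 0. In vivo the red shRad21 points lie below all grey shLuci points in each panel, and in culture this holds for *Gbp3* and *Tap1*.

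The genes of the list varied together between culture libraries in both groups. Of the 38 genes, 30 were lowest in the library numbered 1 in both the shLuci and the shRad21 group, as were 17.0% of all genes. The median of the 38 log2(CPM + 0.1) values relative to the mean of the 6 culture libraries was −0.23, 0.33, and 0.12 in shLuci libraries 1 to 3 and −0.45, 0.062, and 0.042 in shRad21 libraries 1 to 3, while medians over all genes lay between −0.002 and 0.008. The difference between libraries of 1 group was thus larger than the median difference between the groups. After removal of the group means, the correlation between 2 genes of the list averaged 0.703 over the 6 culture libraries (0.000422 over all gene pairs) and 0.4 over the 6 in vivo libraries. The points of these correlations share libraries and depth, and they are given as a description.

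In vivo the library medians were −0.038, −0.059, and 0.097 in shLuci and −0.095, 0.158, and −0.061 in shRad21 libraries. The second shRad21 library was the highest of its group for 32 of the 38 genes, against 35.6% of all genes, and 8 genes were lowest in the library numbered 1 of both groups, against 11.9% of all genes. What set the culture libraries numbered 1 and this in vivo library apart was not tested.

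**Figure D5:**
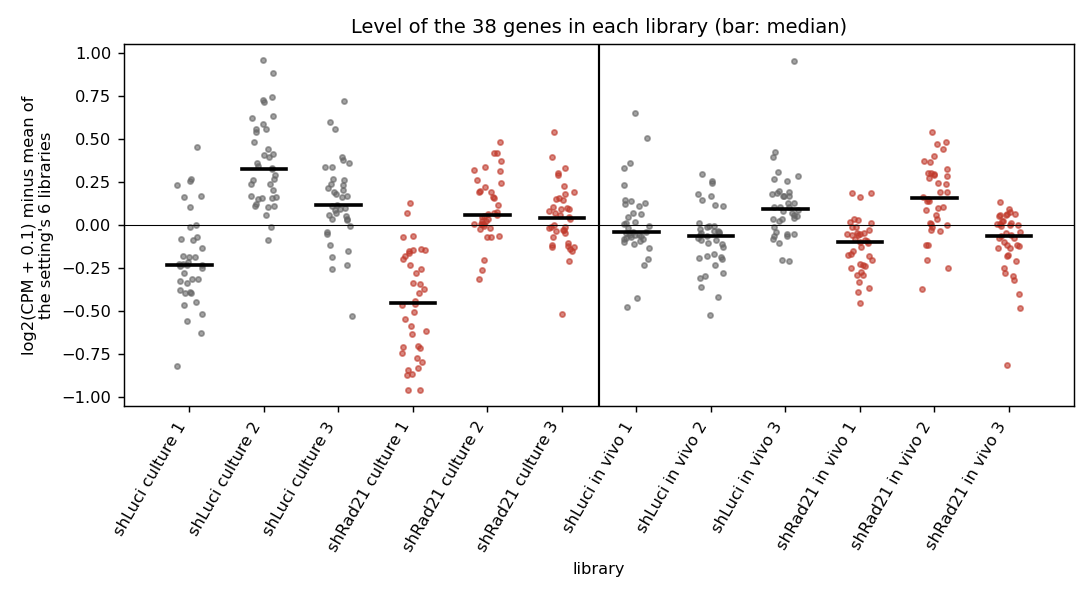
Each point is 1 of the 38 genes in 1 library, as log2(CPM + 0.1) minus the mean of the 6 libraries of its setting, and bars mark the medians (grey shLuci, red shRad21). The culture libraries numbered 1 have the lowest medians of their groups, −0.23 and −0.45, and the in vivo medians stay between −0.095 and 0.158.

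Whether the effect of the knockdown differed between the settings was tested as an interaction over all 12 libraries. With edgeR, 0 of the 38 genes passed, beside 4.67% of all 17050 genes tested in either direction, and 7 had an unadjusted p under 0.05 (17.7% of all genes). DESeq2 also called 0, beside 8.59% of all genes. With the replicate block, 4 genes had a lower fold change in culture than in vivo (10.5%, against 3.87% of all genes): *Usp18*, *Ifi44*, *Oas3*, and *Ifih1*. For *Bst2* the difference was −0.44 ± 0.14 (edgeR, adjusted p = 0.103 without and 0.108 with the block). For *Psmb8* and *Psmb9*, called in vivo and not in culture, the differences of 0.22 ± 0.10 and 0.31 ± 0.13 did not pass (edgeR, adjusted p = 0.275 and 0.237), so that the effect was not shown to differ between the settings.

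Control cells of the 2 settings were compared with the kit, sort, and time confounded with the setting. Of the 38 genes, 12 were higher in culture (31.6%) and 16 were lower (42.1%), and of all genes 37.1% were higher and 37.1% lower, so the shares were near those of all genes. The role groups did not move as one. All 5 GTPases were lower in culture, with log2 differences from −1.205 to −0.69, as were the 3 MHC class I genes, with *Psmb8* at −1.77 ± 0.075 (edgeR, adjusted p = 3.021e-11). The RNA sensors *Ifih1*, *Ddx58*, and *Eif2ak2* were higher, with log2 differences of 1.01, 1.06, and 1.59, while *Zbp1* was lower, at −1.54. Of the OAS family, *Oas3* and *Oas2* were higher (1.68 and 1.07) and *Oasl1* and *Oasl2* lower (−1.35 and −0.51). *Parp14* had the highest log2 difference of the list (1.98 ± 0.13, edgeR, adjusted p = 2.702e-09), and *Stat2* was also higher (1.35 ± 0.099).

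Other genes of the pathway were described from lists that did not contain the 38 genes. Of 9 interferon genes, none had enough counts to be tested in any comparison: the highest count in a library was 6, for *Ifnb1*. *Ifngr1*, *Ifngr2*, and *Il10rb*, which code for receptor chains, were called lower in both settings. Of 10 receptor, kinase, and STAT genes tested, 6 were lower and 0 higher in culture, beside 8.06% and 6.18% of all genes, and 4 lower and 1 higher in vivo, beside 5.32% and 5.65%. *Ifngr1* was at 113 ± 6.70 CPM in shLuci and 73.7 ± 5.38 CPM in shRad21 cells in culture (log2 fold change −0.61 ± 0.085, edgeR, adjusted p = 0.000872) and at 265 ± 8.73 and 175 ± 1.55 CPM in vivo (−0.60 ± 0.056, edgeR, adjusted p = 0.000224). *Ifngr2*, the second chain of the interferon γ receptor, had log2 fold changes of −0.76 ± 0.14 and −0.80 ± 0.096 (edgeR, adjusted p = 0.00462 and 0.000781). *Il10rb*, which the interferon λ receptor shares with the interleukin 10 receptor, fell by 0.46 in culture and by 0.59 in vivo on the log2 scale. *Stat3* was higher in vivo (0.36 ± 0.078, edgeR, adjusted p = 0.0166).

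Of 9 interferon regulatory factor genes and partners outside the list, 4 were lower in each setting (8.06% of all genes in culture and 5.32% in vivo), and 3 in vivo with the block. *Irf8*, a factor of monocyte and dendritic cell development, fell from 17.5 ± 4.20 to 8.29 ± 0.359 CPM in culture (−1.07 ± 0.17, edgeR, adjusted p = 0.00177) and from 105 ± 16.5 to 31.1 ± 6.76 CPM in vivo (−1.76 ± 0.16, edgeR, adjusted p = 0.000172). *Irf1*, an activator of *Psmb9* and *Tap1* among other genes, fell in vivo from 269 ± 18.6 to 198 ± 19.5 CPM (−0.44 ± 0.083, edgeR, adjusted p = 0.00829) and was not called in culture (−0.21 ± 0.081, edgeR, adjusted p = 0.124). The part of *Irf1* in the values of *Psmb9* and *Tap1* was not tested. *Irf4* was low, at 0.689 ± 0.139 and 0.279 ± 0.0748 CPM in culture (−1.29 ± 0.38). Of the genes for sensing upstream of interferon, 2 of 14 tested were lower in culture, *Tlr9* (−2.65 ± 0.29) and *Ikbke* (−0.87 ± 0.087), beside 8.06% of all genes. In vivo 1 of 13 was lower, *Tmem173*, which codes for STING (−0.46 ± 0.065), beside 5.32% of all genes. Of 10 negative regulators, *Samhd1* was lower (−0.30 ± 0.066) and *Ptpn11* higher (0.38 ± 0.079) in vivo, beside 5.32% and 5.65% of all genes. The median log2 fold change of the 10 in culture was 0.034. Of the monocyte, macrophage, and dendritic cell markers, 7 of 8 tested were also lower in culture (8.06% of all genes) and 5 of 10 in vivo (5.32%). Their part in the values of *Irf8*, *Tlr9*, and the receptors was not tested.

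Of further interferon-stimulated genes outside the list, 13 of 74 tested were lower and 5 higher in culture, beside 8.06% and 6.18% of all genes. With the block these were 19 and 9, beside 11.2% and 9.31%. In vivo 6 of 79 were lower and 4 higher, with or without the block, beside 5.32% and 5.65% of all genes. Only called genes are ranked here. Among those called in culture, the lowest fold changes were those of the chemokine genes *Ccl5* (32.3 ± 6.69 against 2.74 ± 1.19 CPM, −3.58 ± 0.26) and *Cxcl10* (6.78 ± 1.74 against 1.36 ± 0.694 CPM, −2.34 ± 0.32), and of *Ly6e* (−1.24 ± 0.13, edgeR, adjusted p = 0.000221). *Gbp8* (2.10 ± 0.27), *Slfn2* (0.65 ± 0.16), and *Slfn9* (0.36 ± 0.079) had the highest of the called genes. Among the genes called in vivo the lowest were *Ifit1bl1* (−1.53 ± 0.43), *Ifi27l2a* (−1.10 ± 0.29), and *Ly6e* (−0.51 ± 0.050), and the highest *Slfn2* (1.31 ± 0.23), *Gbp8* (1.16 ± 0.25), and *Ifitm3* (0.47 ± 0.058). *Ly6e* was lower and *Slfn2* and *Gbp8* were higher in both settings.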

How the data were processed

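RNA-seq of 12 libraries (4 groups of 3) was used, and groups and replicate numbers came from the sample labels. The authors removed rRNA reads, trimmed, mapped to GRCm38 with TopHat2 2.0.11, and counted reads on genes with HTSeq 0.6.1 (versions per the submitters' processing notes); the deposited values are raw counts, not normalized. The strand setting and the annotation release were not given in the sources used here. Identifiers were matched to GENCODE M21: 849 of 46078 genes had no match and held 0.105% of counts.

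Counts were tested with edgeR 4.0.16 (R 4.3.3; TMM scaling, filterByExpr, quasi-likelihood test, two-sided, Benjamini-Hochberg over all genes tested, threshold 0.05) within each setting, and over all 12 libraries for the interaction and the control cells. CPM are TMM-scaled within a setting, and levels per kb over all libraries. DESeq2 1.42.0, other scalings and filters, the replicate block, and leaving out each library were alternatives. The fits were tested on simulated data. Count floors cover counting error only. The SE of a fold change comes from the quasi-likelihood fit and the SD of CPM from the libraries of a group. Both therefore include the spread between libraries.

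Replicates differed by 6.16 to 22.6 times the sampling variance, so no library was a copy. Same-numbered shLuci and shRad21 libraries had correlated deviations from their group means in culture (r from 0.216 to 0.262 for the 3 pairs, from −0.322 to 0.0686 for other pairs). In vivo r was from 0.024 to 0.0694. Deviations within a group sum to 0, so these r are not independent of each other. The numbers were therefore taken as pairs in culture. The pairing is inferred from these same counts, since the labels give only the number.

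The genes and lists were chosen with earlier results of these data known. Values in every library are given for genes called in a knockdown comparison or the interaction and for role groups described; outside the list, at most the 3 called genes of largest fold change per list and direction, and *Rad21*, were named, and others where a sentence is about their absence. Promoter windows came from RefSeq (GRCm38.p6). Some genes of the pathway lists are not reported here.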

Additional observations from a re-analysis of the deposited data

Results flagged for a closer look

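In edgeR with replicate numbers blocked, 4 genes passed a test of the difference in knockdown effect between culture and in vivo. The fold change in culture minus that in vivo was −0.72 for *Ifi44* (adjusted p = 0.0338), −0.49 for *Ifih1* (adjusted p = 0.0357), −0.67 for *Oas3* (adjusted p = 0.0325), and −0.84 for *Usp18* (adjusted p = 0.0369), all on the log2 scale. Without the block, adjusted p in edgeR was 0.254, 0.129, 0.312, and 0.222, and in DESeq2 it was 0.352, 0.0803, 0.425, and 0.320. In culture the 4 genes were lower in each of the 3 pairs, and in vivo *Ifih1* was higher in all 3 shRad21 libraries, while the groups of *Ifi44*, *Oas3*, and *Usp18* overlapped. The numbers were taken to pair the samples in culture only, and a block in culture alone called the same 4 genes. This pairing was inferred from these same counts. Genes of the list varied together between culture libraries, so the 4 calls are not independent of each other. The settings also differ in kit and sorted population, which cannot be told apart from the setting.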

How the results depend on the processing

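In culture, where 2 genes were called lower and 1 higher, the number lower was 4 with DESeq2, 10 without a filter on low counts, 13 with the replicate block, and 5 in 1 model of all 12 libraries, and the number higher was 3 without the filter, 3 with the block, and 0 in 1 model. Leaving out 1 library at a time gave 0 to 5 lower and 1 to 2 higher, and leaving out both libraries of number 1, 2, or 3 gave 4, 1, and 3 lower and 2, 0, and 1 higher. With the block, 13 lower calls became 8, 5, and 14 without number 1, 2, or 3 and 9 in DESeq2. In vivo, 0 higher calls became 1 with DESeq2, upper-quartile scaling, library size only, or 10 counts in every library, 3 without the filter, and 0 to 1 with 1 library left out; lower calls ran from 3 to 6. For the interaction, 0 lower calls became 6 without the filter, 4 with the replicate block, 4 with the block in culture only, and 0 to 1 with 1 library left out. The causes of these changes were not tested. The median log2 fold change ran from −0.32 to −0.063 in culture and from −0.045 to 0.042 in vivo, where it changed sign but was not tested. Alternatives that leave out both libraries of a number were chosen after seeing the data. Genes of low level, such as *Mx1* and *Ifit3*, are limited by depth.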
